A study of Rattus norvegicus with 68 samples.

Results

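Rats that breathed formaldehyde at 10 ppm for 4 weeks were compared with rats that breathed 0.7 ppm for the same time, by the RNA of cells taken from the lining of the nose. The series holds 68 arrays in 17 groups of 4 animals, and the comparison uses 8 of them, the 4 whose title and description give 10 ppm and 4 w and the 4 that give 0.7 ppm and 4 w. All 8 animals were male F344/CrlBR rats, 8 weeks of age per the labels, kept in whole-body inhalation chambers for 6 hours per day on 5 days per week. The reference was itself exposed, and 0 ppm at 4 w was not analysed here, so every difference is a step between a low and a high dose. Cells were digested with proteases from the middle part of the nose (level II) once the olfactory lining and maxilloturbinate had been cut away, which left the lateral meatus and nasoturbinate. The treatment field of these 8 samples gives a duration of 5 days, whereas title, description and time tag give 4 w, and the latter were followed. Each array holds 1 animal, and no label names a batch or pairs the animals. All probe sets that name 1 gene were used, which gave 14217 genes tested. Values of single animals are log2 signals in the order 331, 333, 336 and 338 for 10 ppm and 242, 243, 245 and 250 for 0.7 ppm. Differences are 10 ppm minus 0.7 ppm on the log2 scale ± SE from limma with n = 4 in each group, and a gene was called at a Benjamini-Hochberg adjusted p under 0.05.

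Formaldehyde is a small electrophile that reacts with thiols and amines in proteins and can join protein to DNA, and it is absorbed mostly in the front of the nose. The lateral wall there carries a thin transitional epithelium and, further back, a ciliated respiratory epithelium. Under lasting irritation such a lining can divide faster and take on a layered, keratin-rich squamous form, known as squamous metaplasia. Ligands of the EGF receptor and transcription factors of the AP-1 family drive growth and wound closure in many epithelia, the Nrf2 pathway restores thiols, and the p53 pathway raises Cdkn1a, an inhibitor of cyclin-dependent kinases.

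RNA integrity was 8.10 ± 0.29 (SD, n = 4) at 10 ppm and 8.20 ± 0.08 at 0.7 ppm, and pairs of arrays from the same group had correlations of 0.984 to 0.995. At 2 ppm and 4 w, used below as another reference, RNA integrity was 5.4 in animal 272 and 7.6 to 8.3 in the others. The airway secretory protein gene Bpifa1 (15.2 at 10 ppm and 15.2 at 0.7 ppm) and the keratin genes Krt8 (13.1 and 12.6) and Krt5 (12.3 and 11.9) had high signals, as the label of a nasal epithelium would have it. The olfactory lining was dissected away, yet the olfactory neuron marker Omp was at 12.7 and 12.9 and the bone marker Bglap at 13.1 and 12.9, all high signals, and the part of such neighbouring tissue in the differences was not tested. In such bulk samples a change in the number of cells of a type and a change in RNA per cell cannot be told apart.

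Promoter sequence is shown for 5 genes picked singly, taken from RefSeq (build GRCr8). It covers the 250 bases before the annotated start site, written 5′ to 3′ on the gene's own strand. Sprr1b, Plaur and Mmp3 were among the genes with the largest rises, and capitals mark the AP-1 motif TGANTCA. Areg and Fst, also among the genes with the largest rises, are not shown. Cdk1 and Cdc20 stand for the genes of cell division, and capitals mark the cell cycle homology region TTTGAA and the CCAAT box, which reads ATTGG on the opposite strand. The windows lie at chr2:180706356-180706605 (minus strand) for Sprr1b, chr1:89181113-89181362 (plus) for Plaur, chr8:12925031-12925280 (plus) for Mmp3, chr20:19265043-19265292 (plus) for Cdk1 and chr5:137255800-137256049 (minus) for Cdc20.
Sprr1b: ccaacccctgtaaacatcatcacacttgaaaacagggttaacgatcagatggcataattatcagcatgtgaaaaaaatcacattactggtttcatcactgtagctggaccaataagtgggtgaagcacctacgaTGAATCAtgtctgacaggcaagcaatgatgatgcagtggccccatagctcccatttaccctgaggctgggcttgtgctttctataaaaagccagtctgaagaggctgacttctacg
Plaur: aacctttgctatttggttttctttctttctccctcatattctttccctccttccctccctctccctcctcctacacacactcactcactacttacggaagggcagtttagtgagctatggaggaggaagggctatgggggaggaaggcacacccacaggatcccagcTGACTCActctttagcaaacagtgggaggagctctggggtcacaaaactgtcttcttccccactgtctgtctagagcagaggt
Mmp3: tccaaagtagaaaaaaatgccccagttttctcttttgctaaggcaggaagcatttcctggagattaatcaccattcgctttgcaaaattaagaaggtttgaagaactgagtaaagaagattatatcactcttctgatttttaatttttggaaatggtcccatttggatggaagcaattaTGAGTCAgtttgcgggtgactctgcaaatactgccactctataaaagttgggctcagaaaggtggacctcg
Cdk1: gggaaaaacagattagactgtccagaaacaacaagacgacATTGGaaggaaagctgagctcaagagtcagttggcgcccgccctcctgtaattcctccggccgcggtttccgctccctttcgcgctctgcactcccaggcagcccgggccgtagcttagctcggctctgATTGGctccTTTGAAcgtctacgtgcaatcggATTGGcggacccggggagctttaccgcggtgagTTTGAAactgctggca
Cdc20: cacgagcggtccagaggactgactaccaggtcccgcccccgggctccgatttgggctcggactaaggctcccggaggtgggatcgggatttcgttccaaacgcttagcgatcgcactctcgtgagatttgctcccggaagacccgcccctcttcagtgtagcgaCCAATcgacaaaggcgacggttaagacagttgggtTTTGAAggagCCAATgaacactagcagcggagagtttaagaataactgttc
Each AP-1 gene has 1 match, which starts 116 bases before the start site in Sprr1b, 83 in Plaur and 71 in Mmp3. TTTGAA starts 72 and 16 bases before the start of Cdk1 and 51 before that of Cdc20. Both strands were searched in the RefSeq window of 300 bases, which runs 50 bases past the start. TGANTCA occurred in 7.33% of all 27457 windows, in 5.44% of the 11733 genes tested that had a window, and in 33.3% (11 of 33) of the cornified envelope list. TTTGAA occurred in 18.1%, 12.3% and 71.1% (27 of 38 mitosis genes), and CCAAT in 37.7%, 37.3% and 78.9% (30 of 38) of the same sets. TGANTCA occurred in 0 of 16 windows of the EGF receptor list and 0 of 14 of the immediate early and AP-1 list. In the wound repair and matrix list it occurred in 29.2% (7 of 24). The motif TGACNNNGC, a form of the antioxidant response element, occurred in 23.3% (7 of 30) of windows of the Nrf2 list. That stood against 14.4% of genes tested and 21.2% (7 of 33) of the cornified envelope list. A match says only that these letters are present.

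Of the genes tested, 2102 (14.8%) were called, 1284 (9.03%) higher and 818 (5.75%) lower at 10 ppm, and 3871 had an unadjusted p under 0.05. The largest rises were in Sprr1b, Areg and Mmp3, and the largest fall was in Cxcl13. All 4 animals of 10 ppm lay above all 4 of 0.7 ppm for 1058 called genes (7.44% of those tested) and below them for 670 (4.71%). A change of at least 1.5-fold as well was met by 513 genes, 391 higher and 122 lower, so most calls were of small changes. Read against these shares, the lists with the most genes called higher were mitosis (39 of 43), ribosome biogenesis (31 of 39) and S phase with DNA replication (31 of 40). Genes of ion transport (6 of 21 lower) and of P450 and xenobiotic metabolism (10 of 41 lower) were at the other end.

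**Figure D1:**
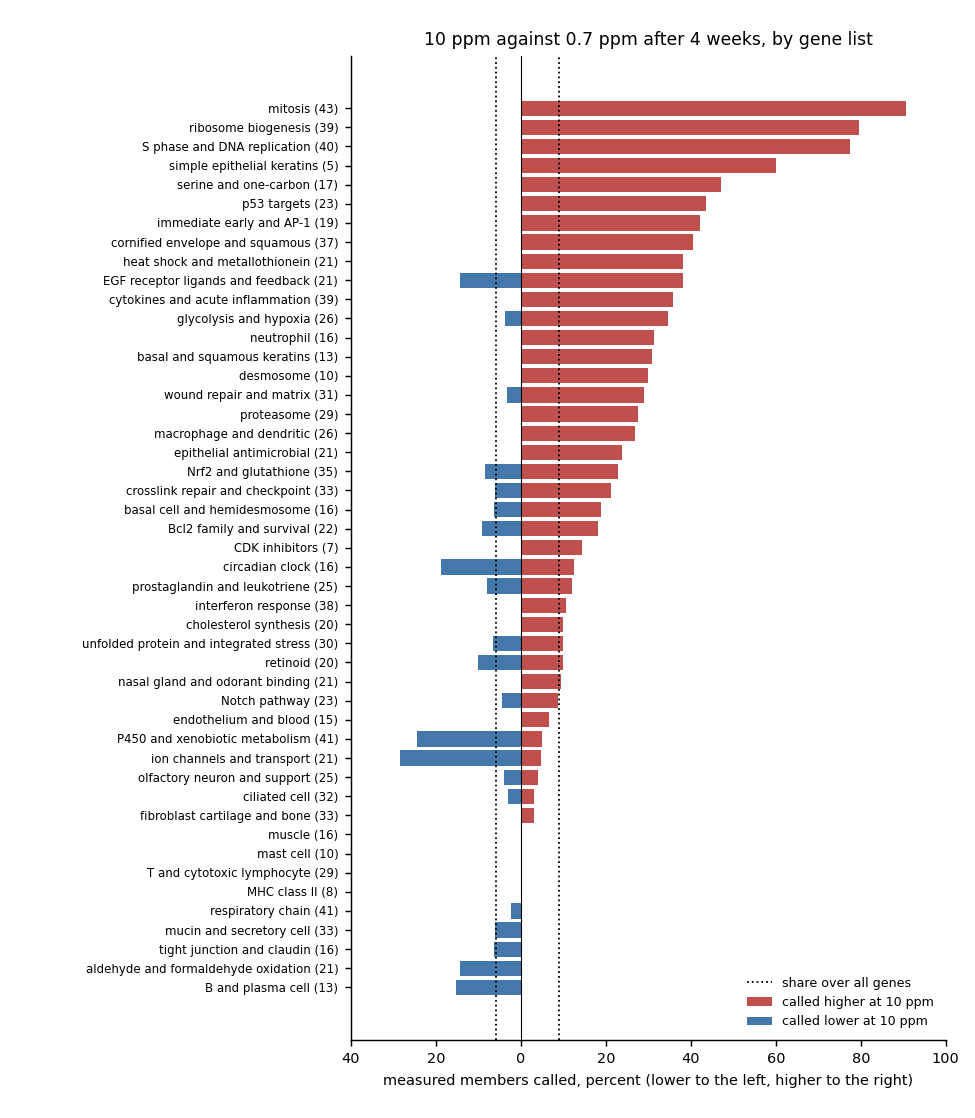
Share of the measured members of each gene list called higher (red, to the right) or lower (blue, to the left) at 10 ppm against 0.7 ppm after 4 weeks, in percent, with the number of members in parentheses. Dotted lines give the shares over all 14217 genes, 9.03% higher and 5.75% lower, and mitosis, ribosome biogenesis and S phase genes reach farthest to the right.

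Areg, Ereg and Hbegf, which encode ligands of the EGF receptor, rose from low signals. Areg, which encodes the EGF receptor ligand amphiregulin, had signals of 9.26, 9.90, 9.82 and 9.73 at 10 ppm and 5.23, 4.94, 4.93 and 5.70 at 0.7 ppm. The groups did not overlap, the 4 animals of 10 ppm spanned 0.64, and the difference was 4.48 ± 0.32 (adjusted p = 2.04e-15). Ereg, the related ligand epiregulin, rose by 2.42 ± 0.24 (adjusted p = 7.10e-11) and Hbegf, a heparin-binding ligand, by 1.35 ± 0.18 (adjusted p = 2.37e-07). All 3 ligands had a mean signal under 6 at 0.7 ppm, where an array measures little, so no fold is given for them. Nrg1, a ligand of other receptors of the family, rose by 0.77 ± 0.16 (adjusted p = 0.000432) in its brightest probe set. Its dimmer probe sets were mixed, at 1.41, 1.22, 0.42, 0.12, 0.08, 0.04 and 0.00. Lrig1, a membrane protein that restrains EGF receptor signalling, fell by 0.59 ± 0.10 (adjusted p = 3.57e-05). Ier3, an early response gene, rose by 1.02 ± 0.18 (adjusted p = 4.64e-05). Among ligands and feedback genes of the EGF receptor, 8 of 21 measured members were called higher and 3 lower, with a median difference of 0.15 against 0.00 over all genes.

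Among immediate early and AP-1 genes, 8 of 19 were called higher and 0 lower, and the median was 0.50. Fosl1, the AP-1 subunit Fra-1, gave 8.39, 8.72, 8.82 and 8.71 at 10 ppm and 6.26, 5.61, 6.32 and 6.13 at 0.7 ppm. All high-dose animals were at least 2.07 above the reference animals, with 331 the lowest of them, and the difference was 2.58 ± 0.21 (adjusted p = 1.16e-13), a 5.97-fold rise. Maff, a small Maf factor, rose by 1.30 ± 0.20 (adjusted p = 3.03e-06) and Myc, a driver of growth, by 0.85 ± 0.18 (adjusted p = 0.000658). Egr2, another early factor, rose by 0.96 ± 0.26 (adjusted p = 0.00793), and not without reference animal 250 (adjusted p = 0.0571). With 2 ppm in place of 0.7 ppm as the reference 4 members of the list were called, and without animal 250 there were 5.

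Genes of wound closure and matrix turnover were called higher in 9 of 31 cases, with a median of 0.29, and lower in 1 (0 without animal 242, 250, 333 or 338). Plaur, the receptor of urokinase whose promoter is shown above, had signals of 8.50, 9.09, 8.94 and 8.89 at 10 ppm and 6.13, 6.31, 6.07 and 6.00 at 0.7 ppm. No animals overlapped, and the difference of 2.73 ± 0.27 (adjusted p = 7.10e-11) was a 6.63-fold rise; a second, dimmer probe set of Plaur differed by only 0.08 ± 0.09. Urokinase itself, Plau, rose by 0.77 ± 0.18 (adjusted p = 0.00156). Fst, the activin-binding protein follistatin, measured 8.08, 9.04, 9.0 and 8.65 at 10 ppm and 5.34, 5.70, 5.70 and 5.40 at 0.7 ppm and rose by 3.16 ± 0.25 (adjusted p = 5.69e-14). Cd44, the hyaluronan receptor, rose by 0.53 ± 0.12 (adjusted p = 0.00131), and by 1.06 ± 0.14 in a second probe set of similar signal. Mmp3, the matrix protease stromelysin-1, was close to the bottom of the scale at 0.7 ppm, with signals of 7.55, 7.80, 10.23 and 6.90 at 10 ppm and 4.12, 5.12, 4.50 and 4.16 at 0.7 ppm. Animal 336 stood 2.44 above the next, yet all 4 animals were above the reference group, and the difference was 3.65 ± 0.39 (adjusted p = 8.90e-10).

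**Figure D2:**
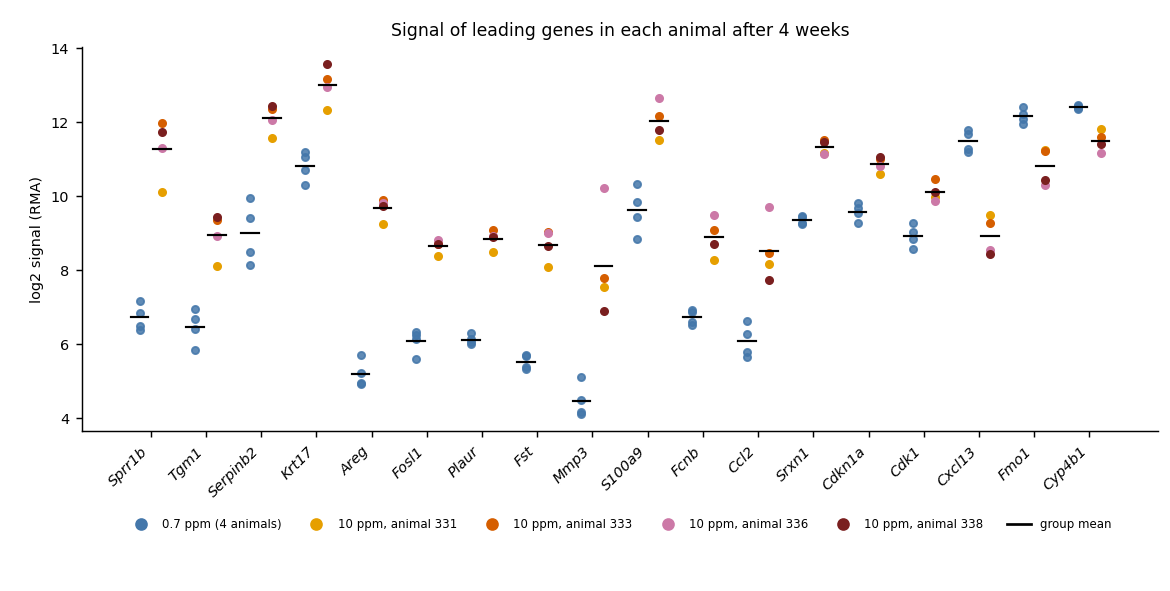
Log2 signal of 18 genes in each animal after 4 weeks, with 0.7 ppm in blue, the 4 animals of 10 ppm in colours of their own, and black bars for group means. Animal 331 is the lowest of the high-dose animals for Sprr1b (10.12) and Areg (9.26), and animal 336 is the highest for Mmp3 (10.23), S100a9 (12.66) and Ccl2 (9.72).

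Squamous differentiation genes were higher at 10 ppm in 15 of 37 members, with 0 lower, a median of 0.44 and a range from -0.42 to 4.56. Sprr1b, a small proline-rich protein that is cross-linked into the cornified envelope of squamous cells, showed the largest rise of all genes, with signals of 10.12, 11.98, 11.32 and 11.75 at 10 ppm and 6.38, 6.86, 6.51 and 7.17 at 0.7 ppm. Animal 331 lay 1.20 below the next high-dose animal but 2.95 above the highest reference animal, and the difference was 4.56 ± 0.40 (adjusted p = 1.97e-12), or 23.6-fold. Tgm1, the transglutaminase that does the cross-linking, had 8.12, 9.36, 8.94 and 9.44 at 10 ppm and 5.85, 6.41, 6.95 and 6.68 at 0.7 ppm, a difference of 2.49 ± 0.35 (adjusted p = 4.74e-07) with no overlap. Dmkn, which encodes dermokine of layered epithelia, rose by 3.13 ± 0.56 (adjusted p = 4.73e-05). Serpinb2, a plasminogen activator inhibitor found in squamous cells, measured 11.58, 12.35, 12.06 and 12.44 at 10 ppm and 8.15, 8.48, 9.42 and 9.94 at 0.7 ppm. Its reference animals spanned 1.79, the groups did not overlap, and the difference was 3.11 ± 0.44 (adjusted p = 5.71e-07). Emp1, a membrane protein of squamous cells, rose by 1.38 ± 0.26 (adjusted p = 0.000106). The envelope precursor involucrin, Ivl, differed by 0.44 ± 0.28 (adjusted p = 0.329) and was not called.

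Keratins of stressed and layered epithelium rose too, with 4 of 13 basal and squamous keratins called higher and 0 lower. Krt17, a keratin of wounded epithelium, had signals of 12.34, 13.18, 12.97 and 13.57 at 10 ppm and 10.31, 10.71, 11.05 and 11.19 at 0.7 ppm, a difference of 2.20 ± 0.31 (adjusted p = 5.92e-07) or 4.60-fold with no overlap. Krt6c rose by 1.42 ± 0.23 (adjusted p = 6.02e-06), although near-identical type II keratins can share its probes. Its other probe sets differed by 0.98 ± 0.17 and, at a dimmer signal, by 0.09 ± 0.21. Krt12, best known from the cornea, rose by 3.23 ± 0.42 (adjusted p = 9.35e-08). The basal cell keratin Krt14 rose by 0.92 ± 0.10 (adjusted p = 3.38e-09), whereas its usual partner Krt5 differed by 0.40 ± 0.15 (adjusted p = 0.0730) and was not called. Krt13 and Krt4, the pair of non-cornifying squamous linings, differed by 0.32 ± 0.43 and 0.50 ± 0.32 and were not called either. Simple keratins Krt8 and Krt19 rose by 0.47 ± 0.10 (adjusted p = 0.000984) and 0.63 ± 0.12 (adjusted p = 0.000173), while Krt18, the partner of Krt8, differed by under 0.01 and was not called. Of 10 desmosome genes 3 were called higher, among them Pkp3, a plakophilin, at 0.75 ± 0.14 (adjusted p = 7.86e-05). Without animal 331 the count was 5, and with 2 ppm as the reference it was 1.

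Crabp2, which carries retinoic acid in keratinocytes, rose by 2.29 ± 0.34 (adjusted p = 1.73e-06), and Dhrs3, which turns retinal back to retinol, fell by 0.66 ± 0.13 (adjusted p = 0.000158). Over the retinoid list 2 of 20 genes were called in each direction, and without animal 250, 333 or 338 only 1 was higher. Nrarp, a feedback target of the Notch pathway, rose by 0.56 ± 0.13 (adjusted p = 0.00233), and not with 2 ppm as the reference (adjusted p = 0.204), and a second probe set gave 0.99 ± 0.15. Sult2b1, the cholesterol sulfotransferase of skin, rose by 1.85 ± 0.35 (adjusted p = 9.42e-05), and by 1.06 ± 0.19 in a second probe set.

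Genes of cell division rose together, and mitosis had the largest share of genes called among the 47 lists. In the mitosis list 39 of 43 measured genes were called higher and 0 lower, 39 had all high-dose animals above all reference animals, and the median difference was 0.97. Cdk1, the kinase that starts mitosis, gave 9.97, 10.48, 9.87 and 10.12 at 10 ppm and 9.27, 8.57, 8.85 and 9.03 at 0.7 ppm. The groups were apart by 0.60 at their nearest animals, and the difference was 1.18 ± 0.13 (adjusted p = 9.89e-10), a 2.27-fold rise. Ube2c, which marks mitotic proteins for destruction, rose by 1.43 ± 0.14 (adjusted p = 1.45e-10), and Cdc20, an activator of the same ubiquitin ligase, by 1.29 ± 0.15 (adjusted p = 1.10e-08). Ccnb2 (cyclin B2), Cdkn3 and the kinetochore gene Nuf2 rose by 1.43 ± 0.16, 1.54 ± 0.18 and 1.11 ± 0.13. Mki67, the usual marker of dividing cells, had signals of 8.49, 9.20, 8.88 and 8.92 at 10 ppm and 8.06, 6.58, 7.97 and 8.15 at 0.7 ppm. Reference animal 243 lay far below the other 3, the groups did not overlap, and the difference was 1.18 ± 0.23 (adjusted p = 0.000198). Top2a, the topoisomerase of dividing cells, rose by 0.90 ± 0.15 (adjusted p = 1.80e-05). Mki67 was not called with only the groups compared (adjusted p = 0.0553) or with 2 ppm as the reference (adjusted p = 0.0758).

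S phase genes were higher in 31 of 40 cases, with 0 lower and a median of 0.53. Pcna, the sliding clamp of DNA polymerase, rose by 0.63 ± 0.07 (adjusted p = 3.18e-09), the cyclin gene Ccne1 by 1.04 ± 0.14 (adjusted p = 2.18e-07) and Uhrf1, which helps copy DNA methylation, by 1.42 ± 0.21 (adjusted p = 8.80e-07). Asf1b, a histone chaperone of replicating cells, rose by 1.28 ± 0.16 (adjusted p = 5.11e-08) and Cdc45, a part of the replicative helicase, by 0.71 ± 0.10 (adjusted p = 9.01e-07). The motif TTTCGCGC, a form of the E2F site, occurred in the windows of 25% (9 of 36) of these genes against 0.563% of genes tested. Ribosome biogenesis genes, which make rRNA and its particles, were called higher in 31 of 39 cases with a median of 0.43, among them Nop58 at 0.67 ± 0.09 (adjusted p = 7.35e-08) and the nucleolar gene Gnl3 at 0.86 ± 0.13 (adjusted p = 3.02e-06).

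The blocks differed in which animal led. Of 39 mitosis genes called higher, animal 333 was the highest for 34, and of 31 S phase genes for 27, while animal 338 led for 22 of 31 ribosome biogenesis genes and 11 of 15 cornified envelope genes. Among all 1284 genes called higher the highest animal was 333 for 589, 338 for 451, 336 for 214 and 331 for 30. Mean levels of the mitosis list were 8.20, 8.66, 8.35 and 8.38 in the high-dose animals and 7.78, 7.09, 7.48 and 7.61 in the reference animals, with no overlap. For the cornified envelope list they were 9.11, 9.94, 9.60 and 10.1 against 8.48, 8.19, 8.97 and 9.08, so that animal 331 lay only just above reference animal 250. In the keratin list animal 331 (10.5) lay below reference animal 250 (10.7).

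**Figure D3:**
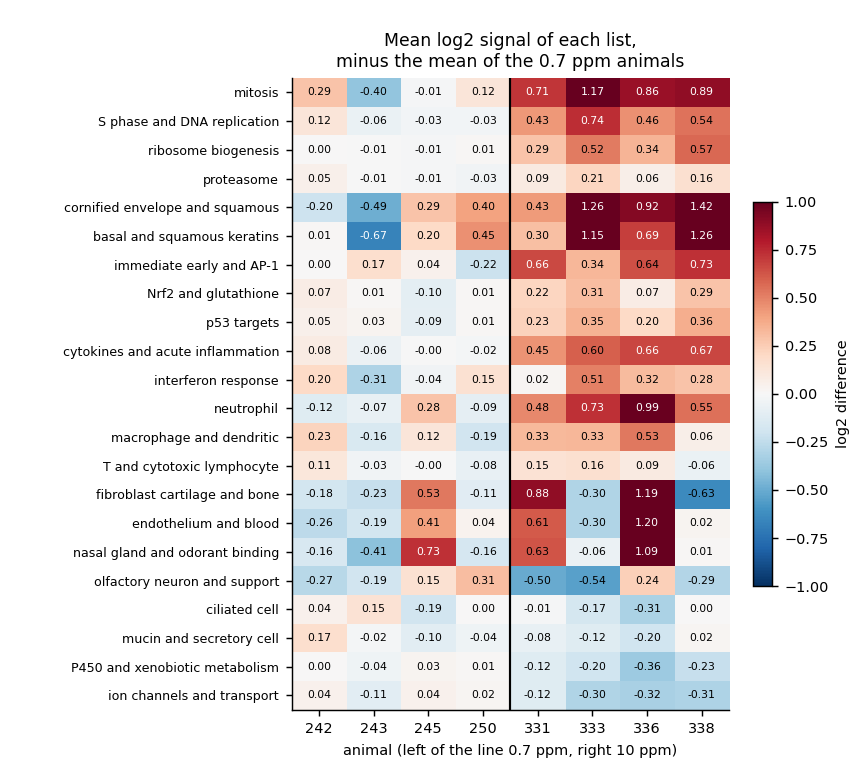
Mean log2 signal of each gene list in each animal, minus the mean of the 0.7 ppm animals, with animals of 0.7 ppm left of the line and of 10 ppm right of it. Division, ribosome and squamous lists are red in all 4 animals of 10 ppm, whereas lists of stroma, endothelium and gland vary between animals of both groups.

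Genes that respond to damage rose in part. Of 23 p53 targets 10 were called higher and 0 lower, with a median of 0.20, and without animal 333 the count was 6. Cdkn1a, which encodes the inhibitor p21, had signals of 10.59, 11, 10.81 and 11.06 at 10 ppm and 9.56, 9.83, 9.29 and 9.68 at 0.7 ppm. No animals overlapped, and it rose by 1.28 ± 0.14 (adjusted p = 6.27e-10), or 2.42-fold. Plk2, a stress-induced kinase, rose by 1.10 ± 0.15 (adjusted p = 1.38e-07) and Sfn, the 14-3-3 protein of squamous epithelium, by 1.38 ± 0.21 (adjusted p = 1.71e-06). Ccng1 and Phlda3, both direct targets of p53, rose by 0.56 ± 0.10 and 0.63 ± 0.13. Cdkn2a, which encodes the inhibitor p16, was measured at 4.72, 5.87, 5.75 and 5.58 at 10 ppm and 4.75, 5.21, 4.60 and 4.81 at 0.7 ppm, a difference of 0.64 ± 0.24 (adjusted p = 0.0676) that was not called. Of 33 genes of crosslink repair and checkpoints 7 were called higher and 2 lower. Those that rose included H2ax, a histone variant marked at breaks, at 0.82 ± 0.11 (adjusted p = 1.61e-07), and Chek1, a checkpoint kinase, at 0.85 ± 0.15 (adjusted p = 3.28e-05). Several of these are also made mainly in dividing cells. Exo1, a nuclease of mismatch repair and recombination, rose by 0.82 ± 0.14 (adjusted p = 1.51e-05) and Fancd2, a core protein of crosslink repair, by 0.49 ± 0.12 (adjusted p = 0.00397). Of 22 survival genes 4 were called higher (18.2%) and 2 lower (9.09%), with a median of 0.05. Bcl2a1, which blocks cell death, rose by 1.22 ± 0.30 (adjusted p = 0.00292), and Bmf and Bik, which promote it, fell by 0.43 ± 0.10 (adjusted p = 0.00250) and 0.49 ± 0.11 (adjusted p = 0.000727). Bid, which also promotes cell death, went the other way, with 0.42 ± 0.15 in its brightest probe set and 0.35 ± 0.17 in a dimmer one. Of these calls Fancd2 and Bik were lost with 2 ppm as the reference. The 2 repair genes called lower were 0 without animal 245 or 333 and 1 without 243, 250 or 338.

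Nrf2 targets of thiol and heme defence were among the higher genes, but the list as a whole was mixed, with 8 of 35 higher, 3 lower and a median of 0.11. Srxn1, the enzyme sulfiredoxin that repairs oxidised peroxiredoxin, gave 11.16, 11.54, 11.14 and 11.47 at 10 ppm and 9.27, 9.46, 9.25 and 9.43 at 0.7 ppm. The groups were 1.68 apart, and the rise was 1.97 ± 0.18 (adjusted p = 4.57e-12), or 3.92-fold. Slc7a11, the cystine importer, rose by 2.02 ± 0.25 (adjusted p = 3.41e-08) and Hmox1, which breaks down heme, by 1.74 ± 0.22 (adjusted p = 7.68e-08). Gss, glutathione synthetase, rose by 0.62 ± 0.08 (adjusted p = 2.75e-07) and Cbr1, a carbonyl reductase, by 0.73 ± 0.14 (adjusted p = 0.000101). The 3 genes called lower, chosen for naming after their values were seen, were the exporter Abcc1 at -0.68 ± 0.17 and the glutathione transferases Mgst1 at -0.27 ± 0.07 and Gstm2 at -0.41 ± 0.14. Gstm2 was not called without any of animals 242, 243, 250, 333, 336 or 338, nor Mgst1 without 336, and all 3 calls were lost with 2 ppm as the reference. The counts were 12 higher and 1 lower without animal 336, 8 and 5 without 331, and 10 and 0 with 2 ppm as the reference.

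Among genes that clear aldehydes, only the oxidising enzymes were counted as a list. In the list of aldehyde and formaldehyde oxidation, limma called 0 of 21 higher and 3 lower, with 2 higher and 5 lower at an unadjusted p under 0.05. With 2 ppm as the reference, or without animal 242, 243 or 333, it called 1 higher. Aldh2, the mitochondrial aldehyde dehydrogenase, fell by 0.54 ± 0.12 (adjusted p = 0.000809) and Aldh1a1, a cytosolic one, by 0.31 ± 0.07 (adjusted p = 0.000525). The third was Aldh6a1, of valine breakdown, at -0.39 ± 0.12 (adjusted p = 0.0181), which was not called without animal 245 or 338. Adh5, the glutathione-dependent enzyme that oxidises formaldehyde, differed by -0.18 ± 0.11 (adjusted p = 0.291) and was not called. Akr7a3 and Akr1b8, aldo-keto reductases from other lists, rose by 2.17 ± 0.30 (adjusted p = 2.75e-07) and 0.75 ± 0.12 (adjusted p = 4.00e-06). Both could be named because they were called, and the reductases were not counted as a class. Serine and one-carbon genes were called higher in 8 of 17 cases and lower in 0, among them Psat1 and Phgdh of serine synthesis at 0.53 ± 0.08 and 0.80 ± 0.14 and the folate enzymes Mthfd1l and Shmt2 at 0.94 ± 0.16 and 0.66 ± 0.13.

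Heat shock and metallothionein genes were higher in 8 of 21 cases with 0 lower, and the mitochondrial chaperone gene Hspd1 rose by 0.44 ± 0.07 (adjusted p = 2.82e-06) and Hspb1, a small chaperone, by 1.21 ± 0.22 (adjusted p = 4.80e-05) with overlap between groups. Of 29 proteasome genes 8 rose by small amounts, such as 0.30 ± 0.08 for Psmc3, with 5 called without animal 243, 245, 333 or 338 and 16 with 2 ppm as the reference. Glycolysis and hypoxia genes were called higher in 9 of 26 cases, such as Pgam1 at 0.39 ± 0.06 (adjusted p = 4.54e-06) and Eno1 at 0.54 ± 0.11 (adjusted p = 0.000182), and lower in 1, Bnip3, at -0.43 ± 0.10 (adjusted p = 0.00233). Bnip3 was not called with 2 ppm as the reference (adjusted p = 0.204), where 6 of the list were called higher. The 41 genes of the respiratory chain had a median difference of -0.05.

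Inflammatory signals were called higher in 14 of 39 members of the cytokine list, with 0 lower and a median of 0.29. Ccl2, the chemokine that draws monocytes, had signals of 8.16, 8.46, 9.72 and 7.73 at 10 ppm and 5.79, 6.29, 6.63 and 5.65 at 0.7 ppm. Animal 336 was the highest by 1.26, the groups did not overlap, and the difference was 2.43 ± 0.47 (adjusted p = 0.000171), or 5.37-fold. Cxcl2, a neutrophil attractant, rose by 3.15 ± 0.69 (adjusted p = 0.000785), Ccl3 by 1.66 ± 0.32 (adjusted p = 0.000173) and Ccl7 by 1.14 ± 0.24 (adjusted p = 0.000570). Ptgs2, the inducible cyclooxygenase of prostaglandin synthesis, rose by 1.93 ± 0.38 (adjusted p = 0.000219), while Hpgd, which breaks prostaglandins down, fell by 0.54 ± 0.16 (adjusted p = 0.0128), the latter not without animal 245 or 336 or with 2 ppm as the reference. The epithelial alarm cytokine Tslp rose by 1.02 ± 0.23 (adjusted p = 0.00115). The motif GGANTTTCC, a form of the NF-kB site, was in 26.7% (8 of 30) of windows of this list against 1.35% of genes tested.

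Neutrophil genes rose in 5 of 16 cases with 0 lower. S100a9, an abundant protein of neutrophils that stressed epithelium also makes, had 11.52, 12.16, 12.66 and 11.79 at 10 ppm and 8.84, 9.45, 10.35 and 9.86 at 0.7 ppm. Its groups did not overlap, and it rose by 2.41 ± 0.50 (adjusted p = 0.000362), or 5.31-fold, beside its partner S100a8 at 2.34 ± 0.50 (adjusted p = 0.000521). Csf3r, the receptor of the growth factor of neutrophils, had signals of 6.21, 7.10, 7.43 and 6.32 at 10 ppm and 4.67, 5.02, 5.20 and 5.29 at 0.7 ppm and rose by 1.72 ± 0.33 (adjusted p = 0.000142). Lilrb4, an inhibitory receptor, rose by 1.74 ± 0.29 (adjusted p = 1.58e-05) and Il1r2, a decoy receptor of interleukin 1, by 1.54 ± 0.37 (adjusted p = 0.00202), and the other 11 members were not called. Fcnb, a ficolin of myeloid cells from outside the list, rose by 2.17 ± 0.30 (adjusted p = 3.81e-07). In all 5 called members animal 336 was the highest. The mean level of the list ran from 6.64 to 7.15 at 10 ppm and from 6.04 to 6.44 at 0.7 ppm, and the part of neutrophil number in the rise of inflammatory genes was not tested. S100a8 was not called with 2 ppm as the reference (adjusted p = 0.0694).

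Macrophage and dendritic genes rose in 7 of 26 cases, all led by animal 336, and 4 were called without animal 243, 250 or 333 or with 2 ppm as the reference, and 3 without 336. Fcer1g and Tyrobp, adaptor proteins of myeloid receptors, rose by 0.81 ± 0.19 (adjusted p = 0.00156) and 0.72 ± 0.18 (adjusted p = 0.00409). Itgax, the integrin CD11c, rose by 0.88 ± 0.23 (adjusted p = 0.00508), though not with 2 ppm as the reference, and the lysosomal marker Cd68 by 0.50 ± 0.17 (adjusted p = 0.0426), whose call was lost without any of animals 243, 245, 250, 331, 333 or 336. Lyz2, the lysozyme of myeloid cells and glands, rose by 0.81 ± 0.23 (adjusted p = 0.0101), and not without animal 336 (adjusted p = 0.0630). The macrophage markers Csf1r, Adgre1 and C1qa differed by 0.12 ± 0.17, 0.13 ± 0.25 and -0.02 ± 0.24 and were not called, nor was the common leukocyte gene Ptprc at 0.42 ± 0.24. Mean levels of the list ran from 8.04 to 8.51 at 10 ppm and from 7.79 to 8.21 at 0.7 ppm, which overlap.

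Lymphocyte genes gave no calls upward. Of 29 T and cytotoxic cell genes limma called 0, with 0 at an unadjusted p under 0.05, and Cd3e, a chain of the T cell receptor complex, was at 6.73 at 10 ppm and 6.73 at 0.7 ppm. Of 8 MHC class II and 10 mast cell genes it called 0 as well, again with 0 at an unadjusted p under 0.05. A mean signal of at least 6 in either group was reached by 17 of the 29 T and cytotoxic cell genes. It was reached by only 3 of the 10 mast cell genes, and by all 8 of MHC class II. Below 6 an array measures little, so a change in the other members could be missed. Interferon-induced genes were called in 4 of 38 cases, all higher, which is 10.5% and close to the 9.03% over all genes. Among them was Cxcl11, a ligand of the chemokine receptor CXCR3 found on T cells, at 1.88 ± 0.51 (adjusted p = 0.00759). Its relative Cxcl10 differed by 1.34 ± 0.54 (adjusted p = 0.0875) and was not called. Without animal 243 or 336 only 2 interferon genes were called, and with 2 ppm as the reference 1.

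The largest fall was that of Cxcl13, the chemokine that draws B cells. Its signals were 9.50, 9.28, 8.55 and 8.43 at 10 ppm and 11.68, 11.78, 11.29 and 11.20 at 0.7 ppm, the groups were 1.70 apart at their nearest animals, and it fell by 2.55 ± 0.46 (adjusted p = 6.11e-05), to a 5.84-fold lower level. Pigr, which carries IgA across the epithelium, fell by 0.65 ± 0.21 (adjusted p = 0.0257), and its call was lost without any of animals 242, 245, 333 or 336. The B cell marker Ms4a1 was at 4.86 at 0.7 ppm and 4.61 at 10 ppm, near the bottom of the scale, and was not called.

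Of 41 genes of P450 and xenobiotic metabolism 10 were called lower and 2 higher, with a median of -0.27. Fmo1, a flavin monooxygenase, had signals of 11.26, 11.23, 10.30 and 10.45 at 10 ppm and 12.09, 11.95, 12.41 and 12.23 at 0.7 ppm. Animals 336 and 338 were the lower pair, no animals overlapped, and Fmo1 fell by 1.36 ± 0.30 (adjusted p = 0.000720), to a 2.56-fold lower level. Cyp4b1, a lung and airway P450, gave 11.82, 11.61, 11.17 and 11.40 at 10 ppm and 12.35, 12.48, 12.46 and 12.39 at 0.7 ppm and fell by 0.92 ± 0.17 (adjusted p = 0.000102). Por, the reductase that feeds electrons to P450 enzymes, fell by 0.58 ± 0.10 (adjusted p = 1.27e-05), Cyp2f4, a P450 of secretory cells, by 0.34 ± 0.06 (adjusted p = 0.000104) and the carboxylesterase Ces1d by 0.59 ± 0.12 (adjusted p = 0.000244), the last not with 2 ppm as the reference (adjusted p = 0.126). Aox4 and Aox1, aldehyde oxidases, fell by 1.10 ± 0.32 (adjusted p = 0.0118) and 1.05 ± 0.38 (adjusted p = 0.0483). The call of Aox1 was lost in 7 of the 8 fits that left out 1 animal, with adjusted p between 0.0511 and 0.183, and that of Aox4 without 245 or 336. Without animal 336 the list had 5 genes lower.

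Ion transport genes were lower in 6 of 21 cases, with a median of -0.32, and higher in 1, the water channel Aqp3 at 0.20 ± 0.06 (adjusted p = 0.0204), whose call was lost without animal 242, 243, 245, 333 or 338. Ano1, a calcium-activated chloride channel, fell by 0.69 ± 0.14 (adjusted p = 0.000313), the potassium channel Kcnq1 by 0.58 ± 0.10 (adjusted p = 1.84e-05) and Scnn1a, a subunit of the epithelial sodium channel, by 0.54 ± 0.15 (adjusted p = 0.00722). Scnn1a was no longer called without animal 336 (adjusted p = 0.0834). Another water channel, Aqp4, fell by 0.32 ± 0.08 (adjusted p = 0.00187), and by 1.13 ± 0.31 in a second, less bright probe set, and Atp1b1, a subunit of the sodium pump, fell by 0.34 ± 0.09 (adjusted p = 0.00731), with -0.19 ± 0.09 in a second probe set. The claudin Cldn8 of tight junctions fell by 0.59 ± 0.15 (adjusted p = 0.00460). With 2 ppm as the reference 4 members of the list were called lower, and Aqp4, Atp1b1, Scnn1a and Cldn8 were not called.

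Other genes with the largest falls were Uts2r, the urotensin receptor, at -1.46 ± 0.31 (adjusted p = 0.000491), Tnnt1, a slow muscle troponin, at -1.44 ± 0.28 (adjusted p = 0.000162), and Slc2a13, an inositol transporter, at -1.13 ± 0.23 (adjusted p = 0.000240), with -0.53 ± 0.14 in a second probe set. Rbms3, an RNA-binding protein, fell by 1.07 ± 0.18 (adjusted p = 1.27e-05), Slc16a12, a creatine transporter, by 1.05 ± 0.18 (adjusted p = 2.39e-05) and Slco1a5, an organic anion carrier, by 0.98 ± 0.19 (adjusted p = 0.000189). Coq8a, which serves coenzyme Q synthesis, fell by 0.99 ± 0.18 (adjusted p = 5.76e-05) and Atp13a5, a transport ATPase, by 1.02 ± 0.15 (adjusted p = 1.55e-06). Lgi1, Stap1 and Chodl fell by 1.09 ± 0.26 (adjusted p = 0.00195), 0.99 ± 0.26 (adjusted p = 0.00590) and 1.03 ± 0.35 (adjusted p = 0.0358). Lgi1, Stap1 and Uts2r were not called with 2 ppm as the reference, and Chodl not without any of animals 242, 243, 245, 336 or 338.

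Among genes of the circadian clock, Hlf, a factor that follows the daily rhythm, fell by 0.96 ± 0.21 (adjusted p = 0.000876), and its other 3 probe sets differed by -0.48 ± 0.12, -0.67 ± 0.15 and -0.36 ± 0.12. Nr1d2 (Rev-erb beta) fell by 0.46 ± 0.12 (adjusted p = 0.00694), and not without animal 336. Nfil3, which opposes such factors, rose by 0.68 ± 0.15 (adjusted p = 0.000868). Over the clock list 3 of 16 fell and 2 rose, with 1 lower without animal 336 and 1 higher without any of 242, 243, 245, 250, 333 or 338. The time of day of sampling is not given in the labels.

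Markers of the other cells in the suspension had few calls, although some lists shifted as a whole. Of 32 ciliated cell genes 1 was called in each direction, with a median of -0.17 that was 0.17 with 2 ppm as the reference. Foxj1, the master factor of cilia, was at -0.16 ± 0.17 and Tekt1 at 0.03 ± 0.20. Ccno, needed for the making of many basal bodies, rose by 1.11 ± 0.18 (adjusted p = 1.38e-05). Among 33 mucin and secretory genes limma called 0 higher and 2 lower, with 0 and 4 at an unadjusted p under 0.05, and without animal 242, 245, 333 or 336 there was 1 lower. The mucin genes Muc5ac, Muc5b and the club cell gene Scgb1a1 differed by -0.13 ± 0.58, -0.15 ± 0.34 and 0.08 ± 0.15. Olfactory genes had 1 call in each direction among 25, the lower one lost without animal 243 or 336, and mean levels of 9.69 to 10.5 at 10 ppm and 9.96 to 10.5 at 0.7 ppm. Of the olfactory differences 24 were below 0, with a median of -0.25 that was 0.26 with 2 ppm as the reference. Fibroblast, cartilage and bone genes ran from 8.41 to 10.2 at 10 ppm and from 8.81 to 9.58 at 0.7 ppm, with 1 of 33 called, 31 differences above 0 and a median of 0.28. That median was 0.00 without animal 336 and -0.19 with 2 ppm as the reference. Endothelial and blood genes ran from 7.01 to 8.51 and from 7.05 to 7.72, with 1 of 15 called, 14 differences above 0 and a median of 0.41. Without animal 336 the median was 0.08, and with 2 ppm as the reference it was -0.08. Gland genes ran from 7.21 to 8.36 and from 6.87 to 8.00, with 2 of 21 called. In these last 3 lists animals 331 and 336 were the high ones at 10 ppm and animal 245 at 0.7 ppm. Calls in them rested on single animals: without 243 or 336 there were 0 among fibroblast genes, without 243, 250 or 336 there were 0 among endothelial genes, and without 243, 331, 333, 336 or 338 there was 1 among gland genes. Their part in the differences above was not tested.

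The same doses were also measured after 5 d and after 13 w in other animals, on other arrays. The fit shared the spread of each gene over all 68 arrays, and the signals of all arrays were modelled jointly. The calls at these times are therefore not independent of those at 4 w. At 5 d, 2927 genes (20.6%) were called, 2056 higher (14.5%) and 871 lower (6.13%), and at 13 w 3847 (27.1%), 2032 higher (14.3%) and 1815 lower (12.8%). Of the 2102 genes called at 4 w, 1283 were called in the same direction at 5 d, which is 61.0% of the 4 w calls and 43.8% of those of 5 d, and 7 in the opposite direction. At 13 w 1736 were called in the same direction, 82.6% of the 4 w calls and 45.1% of those of 13 w, and 0 in the opposite one. The sign of the difference was shared by 94.9% and 98.0% of the 4 w calls. Sprr1b differed by 4.25 ± 0.40 (adjusted p = 2.27e-11) at 5 d and 4.68 ± 0.40 (adjusted p = 3.11e-13) at 13 w, Areg by 3.60 ± 0.32 (adjusted p = 6.78e-12) and 4.66 ± 0.32 (adjusted p = 1.87e-16), and Cxcl13 by -1.69 ± 0.46 (adjusted p = 0.00558) and -1.79 ± 0.46 (adjusted p = 0.00223).

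**Figure D4:**
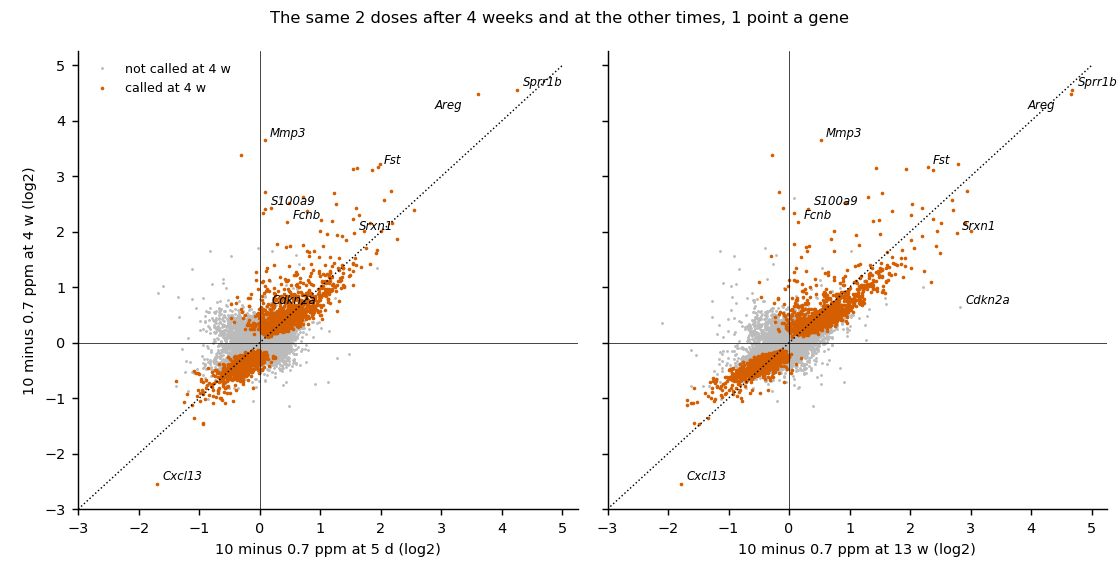
Difference between 10 ppm and 0.7 ppm after 4 weeks (vertical axis) against that after 5 days (left) and 13 weeks (right), in log2 units, 1 point a gene, with genes called at 4 weeks in orange and the dotted line at equal differences. Sprr1b and Areg lie far from 0 at all times, Mmp3 (3.65 at 4 weeks) lies near 0 on both horizontal axes, and Cdkn2a is high after 13 weeks (2.83).

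The test of the difference between times passed for few genes. Between 4 w and 5 d it called 3 of 14217 (0.0211%), with 1411 at an unadjusted p under 0.05. Mmp3 rose by 3.65 at 4 w against 0.08 ± 0.39 (adjusted p = 0.917) at 5 d, so the response was higher by 3.57 ± 0.55 (adjusted p = 0.000450) at 4 w. Trib1, a pseudokinase that steers protein breakdown, differed by 0.45 ± 0.13 (adjusted p = 0.0106) at 4 w and -0.47 ± 0.13 (adjusted p = 0.00513) at 5 d, an interaction of 0.92 ± 0.18 (adjusted p = 0.0216). Mmp15, a membrane-bound matrix protease, moved the other way, with -0.27 ± 0.06 (adjusted p = 0.00153) at 4 w, 0.21 ± 0.06 (adjusted p = 0.0111) at 5 d and an interaction of -0.49 ± 0.09 (adjusted p = 0.00997). The Trib1 interaction was not called without any of animals 243, 245, 333 or 338 of 4 w or 234, 237 or 329 of 5 d, nor that of Mmp15 without 237 or 329. Without animal 250, 5 genes were called. The 4 w difference of Trib1 itself was not called without animal 245 or 333, with only the groups compared or with 2 ppm as the reference (adjusted p = 0.578), nor that of Mmp15 with 2 ppm (adjusted p = 0.534). Between 13 w and 4 w it called 2 genes (0.0141%), with 847 at an unadjusted p under 0.05. The response of Mmp3 was lower at 13 w by 3.13 ± 0.55 (adjusted p = 0.00426), and that of Cdkn2a higher by 2.19 ± 0.34 (adjusted p = 0.000611), with 2.83 ± 0.24 (adjusted p = 3.11e-13) at 13 w itself. Animals of 10 ppm at 4 w ranged from 4.72 to 5.87 for Cdkn2a. When only the groups compared entered the fit, limma called 0 genes in either interaction, with 1311 and 887 at an unadjusted p under 0.05.

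The myeloid genes S100a9, Csf3r and Fcnb and the chemokine gene Ccl2, all called at 4 w, were not called at the other times. S100a9 differed by 0.09 ± 0.50 (adjusted p = 0.930) at 5 d and 0.32 ± 0.50 (adjusted p = 0.718) at 13 w, Csf3r by 0.43 ± 0.33 (adjusted p = 0.399) and 0.28 ± 0.33 (adjusted p = 0.618), Fcnb by 0.45 ± 0.30 (adjusted p = 0.324) and 0.14 ± 0.30 (adjusted p = 0.800), and Ccl2 by 0.18 ± 0.47 (adjusted p = 0.841) and -0.11 ± 0.47 (adjusted p = 0.916). For none of these 4 genes did the test between times pass. For Fcnb, the nearest to it, the 4 w response exceeded that of 5 d by 1.72 ± 0.43 (adjusted p = 0.143) and that of 13 w by 2.02 ± 0.43 (adjusted p = 0.0715). High signals of these genes were not limited to 4 w. At 15 ppm and 5 d the means of S100a9, Csf3r, Fcnb and Ccl2 were 13.92, 9.20, 11.98 and 12.25. At 10 ppm and 4 w they were 12.03, 6.76, 8.90 and 8.52.

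Doses next to 10 ppm at 4 w were compared on the same 10 ppm arrays, so these results are not independent of those above. Against 6 ppm, 82 genes (0.577%) were called, all higher at 10 ppm, and 0 lower, with 900 higher and 245 lower at an unadjusted p under 0.05. Mmp3 was higher by 3.92 ± 0.39 (adjusted p = 8.95e-10), Fst by 2.34 ± 0.25 (adjusted p = 4.08e-09), Fcnb by 2.24 ± 0.30 (adjusted p = 3.54e-06), S100a8 by 2.32 ± 0.50 (adjusted p = 0.0101) and Cxcl11 by 2.43 ± 0.51 (adjusted p = 0.00965). Sprr1b was higher by 1.90 ± 0.40 (adjusted p = 0.0100), and Cdk1 differed by 0.39 ± 0.13 (adjusted p = 0.212) and was not called between these doses. Between them the fibroblast, cartilage and bone list had a median of 0.45 and the endothelial and blood list 0.43, with 0 called in either. The mean of Mmp3 was 4.20 ± 0.18 (SD, n = 4) at 6 ppm, 4.48 ± 0.16 at 2 ppm and 8.01 ± 0.68 at 15 ppm, and S100a8 had 8.37 ± 0.41, 9.34 ± 1.00 and 10.96 ± 0.37 in the same order. The count depended on single animals: it was 19 without animal 303 and 50 without 309 of 6 ppm, and 22 without 336, 23 without 333 and 116 without 331 of 10 ppm, and with only the groups compared limma called 0, with 959 at an unadjusted p under 0.05.

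Between 10 and 15 ppm, 894 genes (6.29%) were called, 726 higher (5.11%) and 168 lower (1.18%) at 15 ppm. Cdkn2a was higher at 15 ppm by 3.59 ± 0.24 (adjusted p = 1.96e-16), with 15 ppm animals between 9.01 and 9.16, all above those of 10 ppm. Ppbp, a platelet chemokine, was higher by 1.84 ± 0.20 (adjusted p = 1.76e-08), Sprr1b by 1.67 ± 0.40 (adjusted p = 0.00727) and Sult2b1 by 1.63 ± 0.35 (adjusted p = 0.00294). Mmp3 differed by -0.11 ± 0.39 (adjusted p = 0.918) and Fcnb by 0.12 ± 0.30 (adjusted p = 0.878), so neither was called between these doses. Lower at 15 ppm were Sema3d, a guidance cue, by 1.19 ± 0.28 (adjusted p = 0.00694), Timp3, an inhibitor of matrix proteases, by 1.05 ± 0.33 (adjusted p = 0.0413) and Lpar1, a receptor of lysophosphatidic acid, by 1.03 ± 0.26 (adjusted p = 0.0110). In this comparison the fibroblast, cartilage and bone list had a median of -0.60 and the endothelial and blood list -0.29, with 0 called in either. The part of such tissue in these falls was not tested. The count was 161 without animal 331 and 467 without 336 of 10 ppm, 345 without 368 and 372 without 369 of 15 ppm, and 5 with only these groups in the fit.

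**Figure D5:**
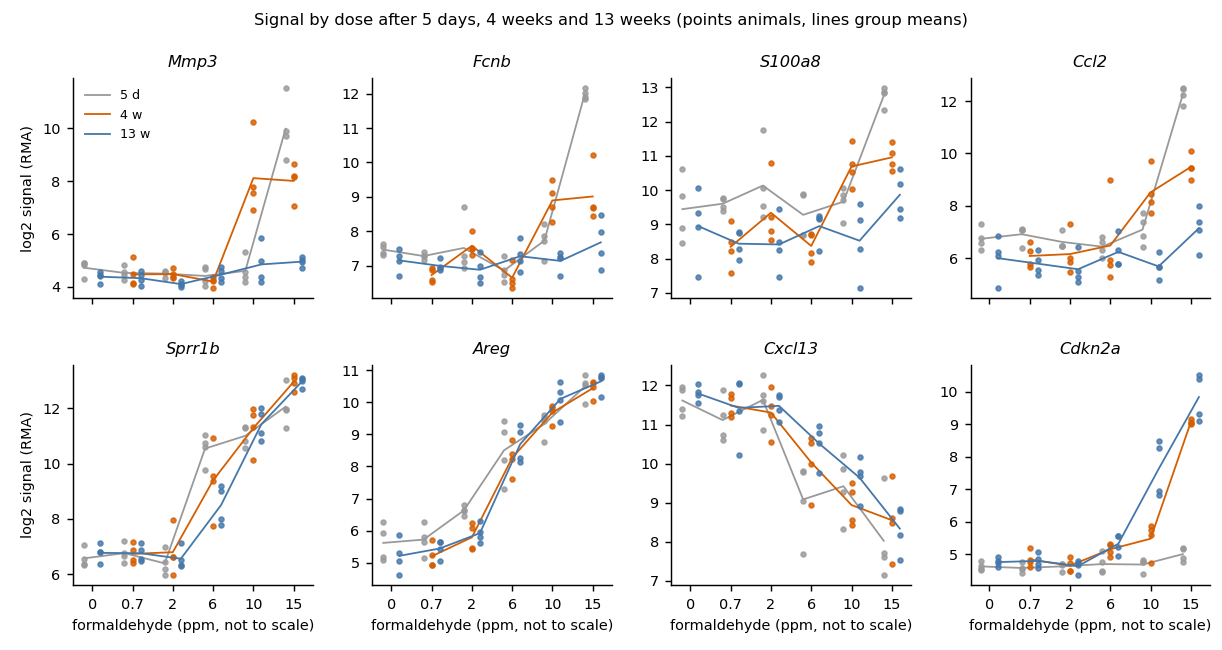
Log2 signal of 8 genes by formaldehyde concentration after 5 days (grey), 4 weeks (orange) and 13 weeks (blue), with 1 point an animal and lines through group means; the 4 week groups start at 0.7 ppm. After 4 weeks Mmp3 goes from 4.20 at 6 ppm to 8.12 at 10 ppm, and Cdkn2a from 5.48 at 10 ppm to 9.07 at 15 ppm.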

How the data were processed

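RNA of 68 rats was measured on Affymetrix Rat230_2 arrays. The deposited values are log2 signals of 31099 probe sets, made by the authors with RMA (robust multi-array average) and GCOS 1.0, per the submitters' processing notes, and no version of RMA is given in the sources used here. They were used as deposited. RMA models all arrays jointly and evens out their distributions, so only relative changes are kept, and array medians lay between 6.82 and 6.96. A probe set was given a gene where the platform annotation, updated through RefSeq, names 1 symbol (20826), and 436 with several, 9780 with none and 57 controls were left out. A gene with several was represented by its brightest probe set (mean of the 68 arrays).

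limma 3.58.1 (R 4.3.3) fitted 1 mean per group over all 68 arrays, with eBayes (51 residual degrees of freedom) and Benjamini-Hochberg adjustment over 14217 genes within each comparison. With 4 arrays a group, their number limits the precision, and the median SE was 0.104. The test of a difference between times was the interaction in the same fit. Samples were grouped by title and description. Genes could be named if they were the 15 largest changes of each sign without overlap, up to 6 called members of each of 47 lists by smallest p, the 6 largest of each sign in the other comparisons, or genes and defining markers listed singly. Members and lists were chosen with earlier results of these data known. Alternatives were other normalizations and filters, other samples in the fit, array weights, RNA integrity and the actin 3′ to 5′ ratio as covariates, 2 ppm as the reference, and leaving out each animal. On simulated data with 14217 genes, the fit of the main comparison called 45 of 50 genes raised by 1 on the log2 scale. It called 40 of 50 raised by 0.5, and 10 unchanged genes were among 192 calls. The interaction test called 44 of 50 at 1 and 25 of 50 at 0.5. Few interaction calls therefore do not show that responses were alike between times. Simulated data need not carry the differences between animals seen here, so these counts do not give the error rate of the real fit. Promoter windows were matched by symbol for 11733 genes.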

Additional observations from a re-analysis of the deposited data

Results flagged for a closer look

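In 394 sets of 4 animals, which cover the 194 genes given with values and measures of array quality in both groups, 14 had an animal far from the other 3, and chance alone flags about 1 in 20 such sets. At 10 ppm animal 331 was low for Hbegf (6.68, the others 7.0 to 7.06) and Nop56 (11.43, the others 11.79 to 11.86) and high for Ms4a1 (5.24, the others 4.38 to 4.41). Animal 336 was low for Lrig1 (10.43, the others 10.88 to 10.94) and Lgi1 (6.15, the others 6.82 to 6.92) and high for the matrix gene Fbln1 (6.86, the others 6.42 to 6.48). Animal 333 was high for Cdc45 (8.48, the others 8.21 to 8.25). At 0.7 ppm animal 243 was low for Mki67 (6.58, the others 7.97 to 8.15) and high for Psat1 (10.03, the others 9.88 to 9.90), Ces1d (13.82, the others 13.61 to 13.64) and Slc16a12 (10.66, the others 10.38 to 10.41). Animal 245 was high for the bone gene Ibsp (11.25, the others 10.10 to 10.22) and for Slc2a13 (9.22, the others 8.98 to 9.01). Animal 242 was low for Il1r2 (6.13, the others 6.57 to 6.61).

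The response to 10 ppm against 0.7 ppm differed between times for 4 genes by the interaction test of limma. From 5 d to 4 w it changed by 3.57 ± 0.55 for Mmp3 (adjusted p = 0.000450), 0.92 ± 0.18 for Trib1 (adjusted p = 0.0216) and -0.49 ± 0.09 for Mmp15 (adjusted p = 0.00997). From 4 w to 13 w it changed by -3.13 ± 0.55 for Mmp3 (adjusted p = 0.00426) and 2.19 ± 0.34 for Cdkn2a (adjusted p = 0.000611). With 2 ppm as the reference the values of Trib1 and Mmp15 were 0.45 and -0.05 (adjusted p = 0.73 and 0.99).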

How the results depend on the processing

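The 2102 calls of the comparison ranged from 1459 to 2968 over the alternatives and from 1519 to 2235 when 1 animal was left out. A change of at least 1.5-fold as well gave 513. Of 157 called genes given with values, 107 kept their call under all 20 alternatives and 0 changed direction. The call was lost by 39 with 2 ppm as the reference, 20 with only the groups compared and 18 without animal 336. Array weights ran from 0.57 to 0.78 at 2 ppm, 0.52 to 1.68 at 10 ppm and 0.70 to 1.45 at 0.7 ppm. Animal 272 of 2 ppm had an RNA integrity of 5.4, and its part in the lost calls was not tested. The share of calls that were higher was 61.1%, and 53.4% with each array centred on its median; at 5 d it was 70.2%, and 49.9% so centred.

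For 10 against 6 ppm the 82 calls became 50 after centring, 0 with only the groups compared and 158 with array weights, and 19 to 116 without 1 animal. For 15 against 10 ppm the 894 became 5 with only the groups compared, 381 with only the arrays of 4 w and 203 at 1.5-fold, and 161 to 1013 without 1 animal. At 5 d the count was 1476 with only the groups compared, 552 at 1.5-fold and 1957 to 2944 without 1 animal. At 13 w it was 1014 at 1.5-fold and 3013 to 3819 without 1 animal. The interaction of 4 w with 5 d gave 0 with only the groups compared, 8 with array weights, 5 with the actin ratio and 1 to 5 without 1 animal, and that of 13 w with 4 w gave 0 and 2 to 3. Settings not named stayed within 1.5 times, and the cause of each change was not tested. Of 711 called genes with several probe sets, all probe sets had 1 direction in 532, and 8 had a probe set called the other way; Trib1 had 0.45, 0.20 and 0.09. No paired analysis was possible because each animal has a number of its own and no label pairs animals.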
